A study of Mus musculus with 12 samples.

Results

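Monocytes leave the bone marrow and enter inflamed tissue along gradients of CC chemokines, small secreted proteins read by receptors on the leukocyte surface. Of these genes 9 were followed in whole lung of mice with house dust mite (HDM) allergy, namely the ligands Ccl2, Ccl7, Ccl12, Ccl3, Ccl4, Ccl6 and Ccl9 and the receptors Ccr1 and Ccr2. They were chosen by gene symbol, and each was represented by its probe set with a single gene symbol and the highest mean over all arrays. All 9 were measured, by 1 probe set each, among 19937 genes.

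Lungs came from 12 Balb/c mice with 1 Affymetrix mouse Gene 1.0 ST array per mouse, in 4 groups of 3. Eosinophilic mice had 3 intraperitoneal injections of HDM extract (0.75 development units, DU, of each of 2 mite allergen extracts, Der p and Der f) adsorbed to 1.5 mg of aluminium hydroxide, and were then challenged through the nose on days 26 to 28. Mixed mice received 0.75 DU of each extract through the nose alone, once a week for 4 applications. Neutrophilic mice followed the same weekly schedule at 7.5 DU of each, and control mice received PBS through the nose. The labels give no alum injection for control mice, so the eosinophilic group differs from them in route, adjuvant and allergen together, and the mixed and neutrophilic groups differ from each other in dose alone.

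Ccl2, Ccl7 and Ccl12 encode monocyte chemoattractant proteins, the ligands of Ccr2, whose signal is known to be needed for inflammatory monocytes to leave the marrow. Ccl3, Ccl6 and Ccl9 act through Ccr1 on monocytes, neutrophils and other leukocytes, and Ccl4 is a further ligand that attracts monocytes and lymphocytes. In the lung these ligands are made by macrophages, epithelium and stroma during allergic and infectious inflammation.

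The ligand genes lie on mouse chromosome 11 in a pair of groups and the receptor genes lie together on chromosome 9 (GRCm38.p6). Ccl2 (chr11:82035577-82037452), Ccl7 (chr11:82045712-82047525) and Ccl12 (chr11:82101845-82103399) fall within 67.82 kb, with the eotaxin gene Ccl11 between Ccl7 and Ccl12. Ccl9 (chr11:83572917-83578636), Ccl6 (chr11:83587886-83593087), Ccl3 (chr11:83647843-83649378) and Ccl4 (chr11:83648624-83664683) fall within 91.77 kb, starting 1470 kb farther along. The annotated spans of Ccl3 and Ccl4 overlap by 755 bases. Ccr1 (chr9:123962126-123968692) and Ccr2 (chr9:124101918-124109140) are 133.2 kb apart.

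Promoter windows, from 250 bases before to 50 bases after the annotated start, were held in the RefSeq table (GRCm38.p6) for 6 of the 9 genes. The windows of 4 genes that were higher in neutrophilic mice and of Ccr2, which passed the threshold in no comparison with 12 arrays, without mouse 7 or without mice 7, 9 and 23, are shown 5′ to 3′ so that they can be set side by side. Capitals mark matches, on either strand, to the binding motifs of NF-kB, AP-1 (TGANTCA), C/EBP (TTNNGNAA) and PU.1 (GAGGAA) or to the TATA box (TATAAA).
Ccl12: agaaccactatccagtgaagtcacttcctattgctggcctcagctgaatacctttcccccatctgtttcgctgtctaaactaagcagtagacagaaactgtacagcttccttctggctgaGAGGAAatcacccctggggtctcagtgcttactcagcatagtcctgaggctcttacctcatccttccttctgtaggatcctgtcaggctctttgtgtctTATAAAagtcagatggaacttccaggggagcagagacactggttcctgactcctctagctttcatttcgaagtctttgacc
Ccl3: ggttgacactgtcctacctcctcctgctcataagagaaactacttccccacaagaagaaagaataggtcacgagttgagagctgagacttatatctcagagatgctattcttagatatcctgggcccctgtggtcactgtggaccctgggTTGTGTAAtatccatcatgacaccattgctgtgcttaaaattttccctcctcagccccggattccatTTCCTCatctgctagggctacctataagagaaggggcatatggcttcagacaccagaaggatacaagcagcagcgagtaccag
Ccl9: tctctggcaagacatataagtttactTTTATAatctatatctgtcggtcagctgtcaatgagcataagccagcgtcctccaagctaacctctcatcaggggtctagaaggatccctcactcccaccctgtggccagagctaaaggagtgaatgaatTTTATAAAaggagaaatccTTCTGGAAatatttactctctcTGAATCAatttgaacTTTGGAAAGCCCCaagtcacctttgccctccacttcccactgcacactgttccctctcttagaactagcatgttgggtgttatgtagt
Ccr1: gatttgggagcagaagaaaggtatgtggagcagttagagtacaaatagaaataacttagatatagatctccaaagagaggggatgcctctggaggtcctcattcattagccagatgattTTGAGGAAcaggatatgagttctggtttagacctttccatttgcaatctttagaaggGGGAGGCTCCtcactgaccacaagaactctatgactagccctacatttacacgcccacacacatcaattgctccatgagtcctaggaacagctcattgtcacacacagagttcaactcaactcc
Ccr2: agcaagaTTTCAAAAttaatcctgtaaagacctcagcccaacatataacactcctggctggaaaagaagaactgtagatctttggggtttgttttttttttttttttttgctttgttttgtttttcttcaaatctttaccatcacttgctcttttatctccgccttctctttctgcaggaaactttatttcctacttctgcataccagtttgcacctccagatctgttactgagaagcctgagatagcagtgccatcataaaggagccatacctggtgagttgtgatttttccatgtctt
These windows are chr11:82101595-82101894 on the plus strand for Ccl12, chr11:83649329-83649628 on the minus strand for Ccl3, chr11:83578587-83578886 on the minus strand for Ccl9, chr9:123968643-123968942 on the minus strand for Ccr1 and chr9:124101933-124102232 on the plus strand for Ccr2. The Ccr2 window lies wholly inside the annotated span of the gene, which begins at chr9:124101918. It is thus not upstream of that span, unlike most of each other window. The Ccl12 window has a PU.1 match and a TATA box whose first base lies at -31 from the start. The Ccl3 window has a C/EBP and a PU.1 match. The Ccl9 window holds an AP-1 match, an NF-kB match that overlaps one of its C/EBP matches, and TATA boxes on both strands, a pair of which overlap. The Ccr1 window has an NF-kB match and a C/EBP match that contains its PU.1 match, and the Ccr2 window has a C/EBP match alone. The Ccl6 window, which is not shown, had no match to any of these motifs. Of the 6 windows, 2 had an NF-kB match, against 8.46% of 32851 mouse promoters of that length. C/EBP letters were found in 4 of 6 (40.7% of all), PU.1 letters in 3 (28.3%), the TATA box in 2 (13.6%) and AP-1 letters in 1 (7.81%). The STAT motif TTCNNNGAA was in none of the 6 and in 8.3% of all. A match is a run of letters, not a shown binding site.

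One array stood apart from the rest before any comparison was made. On the array of eosinophilic mouse 7 the log2 values had a standard deviation (SD) of 0.995 over all probe sets and correlated at r = 0.356 with the median of the other arrays. Eosinophilic mouse 9 (SD 1.52, r = 0.863) and neutrophilic mouse 23 (SD 1.51, r = 0.868) were narrower than the other 9 arrays, whose SD lay between 1.77 and 2.04 and whose correlation lay between 0.956 and 0.980. Sftpc, the surfactant protein C gene of alveolar epithelium, read log2 7.38 on mouse 7 and 12.95 to 14.31 on the other 11 arrays, so the defining marker of the labelled tissue was low on that array. The mean of 3 thymus genes (Rag1, Dntt and Ptcra) was 5.51 on mouse 7 and 3.85 to 4.27 on control arrays. It also lay above the controls on neutrophilic mouse 23 (5.02), eosinophilic mouse 9 (4.54) and mixed mouse 16 (4.42). A dim gene that lies above the controls on mouse 7, 9 or 23 may thus reflect the narrow spread of that array, which was not tested. Results with all 12 arrays are therefore followed by those without mouse 7 where a call or a count of calls differed. Levels are log2 intensities and compare arrays within a gene, never one gene with another. In whole lung a larger number of cells and more RNA per cell cannot be told apart.

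Without mouse 7, Ccl2, Ccl7, Ccl12, Ccl3 and Ccl9 were higher than in control mice in all 3 models and Ccr1 in mixed and neutrophilic mice, while Ccl4, Ccl6 and Ccr2 passed the threshold in none. Differences were tested with limma over 19937 genes and called at an adjusted p under 0.05. With all 12 arrays, 0 of 9 genes passed in eosinophilic mice (6 had an unadjusted p under 0.05), 2 of 9 passed in mixed mice and 5 of 9 in neutrophilic mice, all of them higher. Over all genes 0.0752%, 0.326% and 0.662% were called higher in these comparisons. Without mouse 7 the counts were 5, 6 and 6 of 9, against 0.451%, 1.41% and 2.24% of all genes called higher. With eosinophilic mouse 9 and neutrophilic mouse 23 also left out they were 7, 8 and 8 of 9, against 1.47%, 3.59% and 5.76% of all genes, but that fit holds 1 eosinophilic mouse and takes its spread from the other groups. All 3 comparisons use the same control arrays, so their results are not independent of each other. With all 12 arrays the median log2 difference over the 9 genes was 1.41 in eosinophilic, 2.35 in mixed and 2.35 in neutrophilic mice. Over all genes it was 0.01, 0.00 and 0.05. Without mouse 7 the eosinophilic median over the 9 genes was 1.63. Without mice 7, 9 and 23 the medians were 2.34 in eosinophilic (n = 1), 2.35 in mixed and 2.97 in neutrophilic mice. On 12 arrays, 5 of 9 genes in eosinophilic mice, 8 in mixed mice and 6 in neutrophilic mice had every array above every control array, against 11.1%, 9.16% and 12.6% of all genes.

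**Figure D1:**
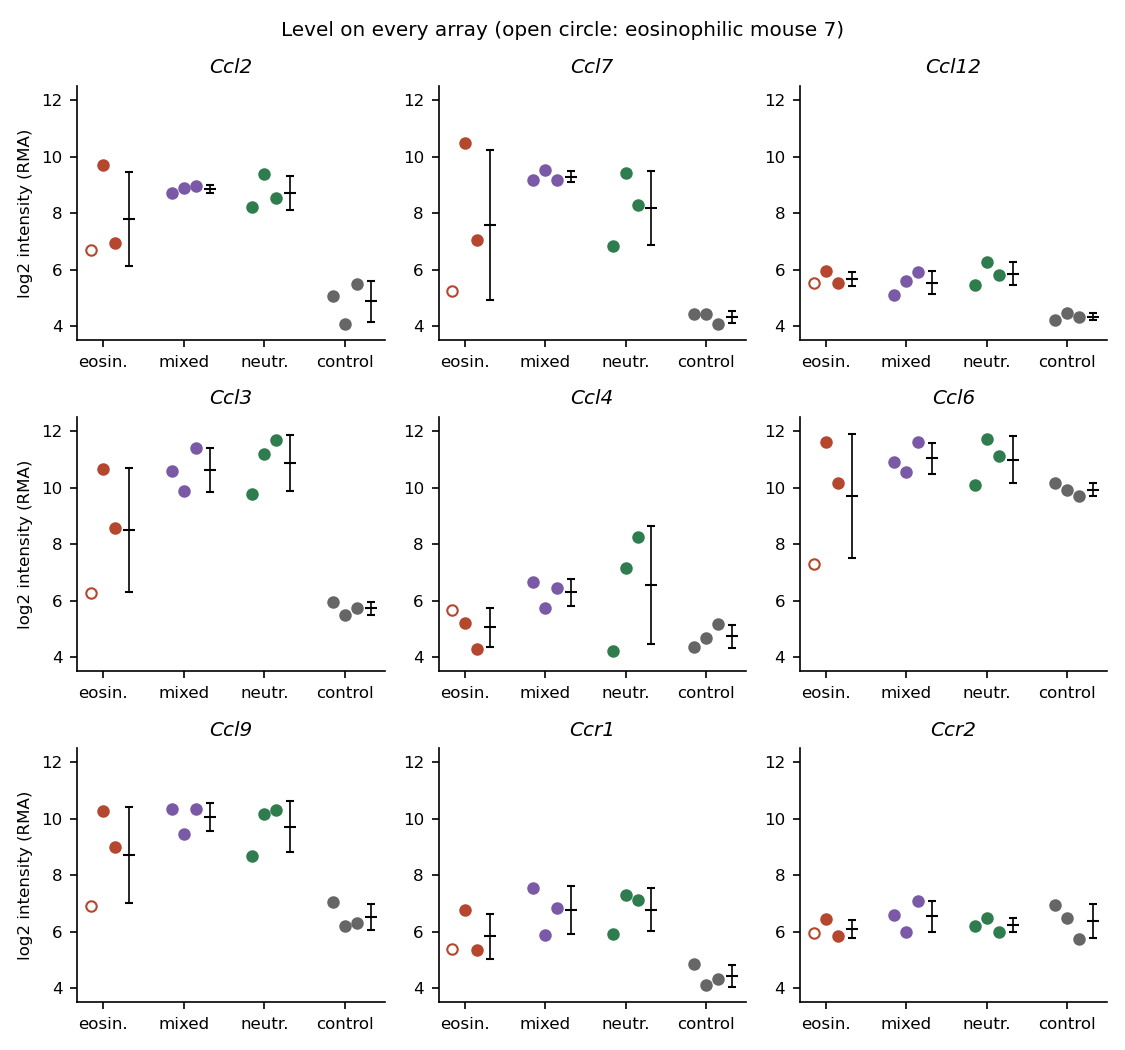
Level of each of the 9 genes on every array, as log2 intensity from RMA, with eosinophilic, mixed, neutrophilic and control mice from left to right, and the mean with its SD (n = 3) beside each group. The open circle is eosinophilic mouse 7. Ccl2, Ccl7, Ccl12, Ccl3 and Ccr1 lie above the controls on every model array, whereas the Ccr2 values of the 4 groups overlap. On mouse 7, and less far on mice 9, 16 and 23, the mean of a set of thymus genes also lay above the controls.

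Ccl2, the best known ligand of Ccr2, read log2 6.70, 9.69 and 6.94 in eosinophilic mice, 8.71, 8.91 and 8.97 in mixed mice, 8.22, 9.39 and 8.54 in neutrophilic mice, and 5.06, 4.10 and 5.51 in control mice. Every array of the 3 models lay above every control array, and the mixed arrays lay closest together. Ccl2 rose by log2 3.97 ± 0.66 (SE, n = 3 each) in mixed mice, a 15.7-fold difference (limma, adjusted p = 0.0227). In neutrophilic mice it rose by 3.83 ± 0.66 (limma, adjusted p = 0.0143). The eosinophilic difference was 2.89 ± 0.66 (limma, adjusted p = 0.0660), and without mouse 7 it was 3.43 ± 0.63 (adjusted p = 0.0210, n = 2 and 3).

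Ccl7, monocyte chemoattractant protein 3, read log2 5.26, 10.47 and 7.03 in eosinophilic mice, 9.19, 9.51 and 9.18 in mixed mice, 6.83, 9.43 and 8.30 in neutrophilic mice, and 4.44, 4.44 and 4.08 in control mice. The eosinophilic arrays spanned 5.22 log2 units, and the mixed arrays 0.34. Its log2 difference from control was 3.27 in eosinophilic, 4.97 in mixed and 3.87 in neutrophilic mice with an SE of 1.0 for each, and none passed with all 12 arrays (limma, adjusted p = 0.107, 0.0513 and 0.0678). Without mouse 7 all 3 passed, at 4.43, 4.97 and 3.87 (limma, adjusted p = 0.0197, 0.00194 and 0.00471).

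Ccl12, monocyte chemoattractant protein 5, a mouse ligand of Ccr2, read log2 5.54, 5.96 and 5.54 in eosinophilic mice, 5.10, 5.60 and 5.93 in mixed mice, 5.47, 6.28 and 5.82 in neutrophilic mice, and 4.23, 4.47 and 4.33 in control mice. All 9 model arrays were above all control arrays. Among them were mice 7, 9, 16 and 23, on which the mean of the thymus genes lay above the controls too. The gene rose by 1.51 ± 0.30 in neutrophilic mice (limma, adjusted p = 0.0256). The differences in eosinophilic (1.34 ± 0.30, adjusted p = 0.0641) and mixed mice (1.20 ± 0.30, adjusted p = 0.128) passed in the limma fit without mouse 7, at 1.41 (adjusted p = 0.0478) and 1.20 (adjusted p = 0.0375).

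Ccl3, macrophage inflammatory protein 1 alpha, read log2 6.27, 10.66 and 8.56 in eosinophilic mice, 10.60, 9.88 and 11.41 in mixed mice, 9.77, 11.20 and 11.68 in neutrophilic mice, and 5.95, 5.51 and 5.74 in control mice. Mouse 7 lay just above the highest control, and every other model array lay well clear of it. Ccl3 rose by 5.15 ± 0.86 in neutrophilic mice, which is 35.5-fold (limma, adjusted p = 0.0123), and by 4.9 ± 0.86 in mixed mice, 29.8-fold (adjusted p = 0.0272). The eosinophilic difference was 2.76 ± 0.86 (limma, adjusted p = 0.109), and 3.88 ± 0.62 without mouse 7 (adjusted p = 0.0115).

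Ccl4, macrophage inflammatory protein 1 beta, passed in no comparison with 12 arrays or without mouse 7. It read log2 5.66, 5.22 and 4.30 in eosinophilic mice, 6.68, 5.74 and 6.46 in mixed mice, 4.23, 7.15 and 8.27 in neutrophilic mice, and 4.36, 4.70 and 5.17 in control mice. The mixed arrays were all above the controls, while neutrophilic mouse 23 was below every control and the other two neutrophilic arrays were above them. The log2 differences were 0.32 in eosinophilic (95% interval -1.37 to 2.01), 1.55 in mixed (-0.14 to 3.24) and 1.81 in neutrophilic mice (0.12 to 3.5), each with an SE of 0.78 (limma, adjusted p = 0.769, 0.720 and 0.294). Leaving out mouse 23 alone, the neutrophilic difference of 2.97 passed (limma, adjusted p = 0.0146, n = 2 and 3). Without mice 7, 9 and 23 the mixed difference of 1.55 and the neutrophilic difference of 2.97 passed (limma, adjusted p = 0.00582 and 6.43e-05, n = 3 and 2 against 3).

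Ccl6 and Ccl9 are mouse ligands of Ccr1, made by macrophages and other myeloid cells. Ccl9 read log2 6.91, 10.27 and 9.01 in eosinophilic mice, 10.35, 9.47 and 10.35 in mixed mice, 8.67, 10.17 and 10.31 in neutrophilic mice, and 7.05, 6.19 and 6.33 in control mice. Apart from mouse 7, which fell within the control range, all model arrays were above the controls. Ccl9 rose by 3.19 ± 0.70 in neutrophilic mice (limma, adjusted p = 0.0395). The eosinophilic difference of 2.21 ± 0.70 and the mixed difference of 3.54 ± 0.70 missed the threshold (limma, adjusted p = 0.113 and 0.0512). Without mouse 7 it passed in all 3 models, at 3.12, 3.54 and 3.19 in eosinophilic, mixed and neutrophilic mice (limma, adjusted p = 0.0126, 0.000933 and 0.00116).

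Ccl6, known for its induction by type 2 cytokines in mouse lung, read log2 7.31, 11.62 and 10.18 in eosinophilic mice, 10.92, 10.56 and 11.61 in mixed mice, 10.09, 11.73 and 11.13 in neutrophilic mice, and 10.17, 9.90 and 9.70 in control mice. Mouse 7 was the lowest of all arrays, and the mixed arrays were all above the controls. Its log2 differences were -0.22 ± 0.82 in eosinophilic, 1.11 ± 0.82 in mixed and 1.06 ± 0.82 in neutrophilic mice, and none passed (limma, adjusted p = 0.851, 1.0 and 0.615). Leaving out mouse 7 turned the eosinophilic difference to 0.98 ± 0.49 (limma, adjusted p = 0.336), and the other comparisons still missed the threshold (adjusted p = 0.264 and 0.165). Without mice 7, 9 and 23 it passed in all 3 models, at 1.70, 1.11 and 1.51 in eosinophilic (n = 1), mixed and neutrophilic mice (limma, adjusted p = 0.0301, 0.0169 and 0.00329).

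Ccr1, the receptor for Ccl3, Ccl6 and Ccl9, read log2 5.40, 6.77 and 5.35 in eosinophilic mice, 7.56, 5.90 and 6.86 in mixed mice, 5.91, 7.31 and 7.11 in neutrophilic mice, and 4.85, 4.11 and 4.32 in control mice. No model array overlapped the control range, with the limit given above for dim genes on mice 7, 9 and 23. Ccr1 rose by 2.35 ± 0.52 in neutrophilic mice, 5.09-fold (limma, adjusted p = 0.0399). In mixed mice the difference was also 2.35 ± 0.52 (limma, adjusted p = 0.0766), which passed without mouse 7 (adjusted p = 0.0175). In eosinophilic mice it was 1.41 ± 0.52, and 1.63 ± 0.54 without mouse 7, and missed the threshold in both fits (limma, adjusted p = 0.132 and 0.158), and it passed at 2.34 without mice 7, 9 and 23 (adjusted p = 0.0175, n = 1 and 3).

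Ccr2, the receptor for Ccl2, Ccl7 and Ccl12, read log2 5.97, 6.44 and 5.85 in eosinophilic mice, 6.57, 5.99 and 7.08 in mixed mice, 6.21, 6.50 and 6.0 in neutrophilic mice, and 6.95, 6.47 and 5.73 in control mice. The 4 groups overlapped throughout. The differences from control were -0.29 in eosinophilic mice (95% interval -1.10 to 0.51), 0.17 in mixed mice (-0.63 to 0.97) and -0.15 in neutrophilic mice (-0.95 to 0.66), with limma adjusted p of 0.561, 1.0 and 0.880. These intervals are not adjusted for the number of genes. With 3 mice a group, changes inside these bounds and some beyond them could have missed the threshold.

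Several of these calls were lost when 1 array was left out. With 12 arrays less 1, no gene of the 9 passed in mixed mice when any 1 control or mixed array was left out, and none passed in neutrophilic mice without control mouse 1 or 2 or neutrophilic mouse 24 or 25. The number passing was 5, 6 and 6 in eosinophilic, mixed and neutrophilic mice without mouse 7. When mouse 7 and each other array in turn were left out, Ccl2, Ccl7, Ccl3 and Ccl9 passed in 11 of 11 limma fits in both mixed and neutrophilic mice. Ccl12 passed in 5 of 11 fits for mixed and in 11 of 11 for neutrophilic mice, and Ccr1 in 7 and in 10. In eosinophilic mice Ccl9 passed in 10 of 11 fits, Ccl2 and Ccl3 in 9, Ccl7 in 8 and Ccl12 in 2, and with control mouse 2 also out none of the 9 passed.

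**Figure D2:**
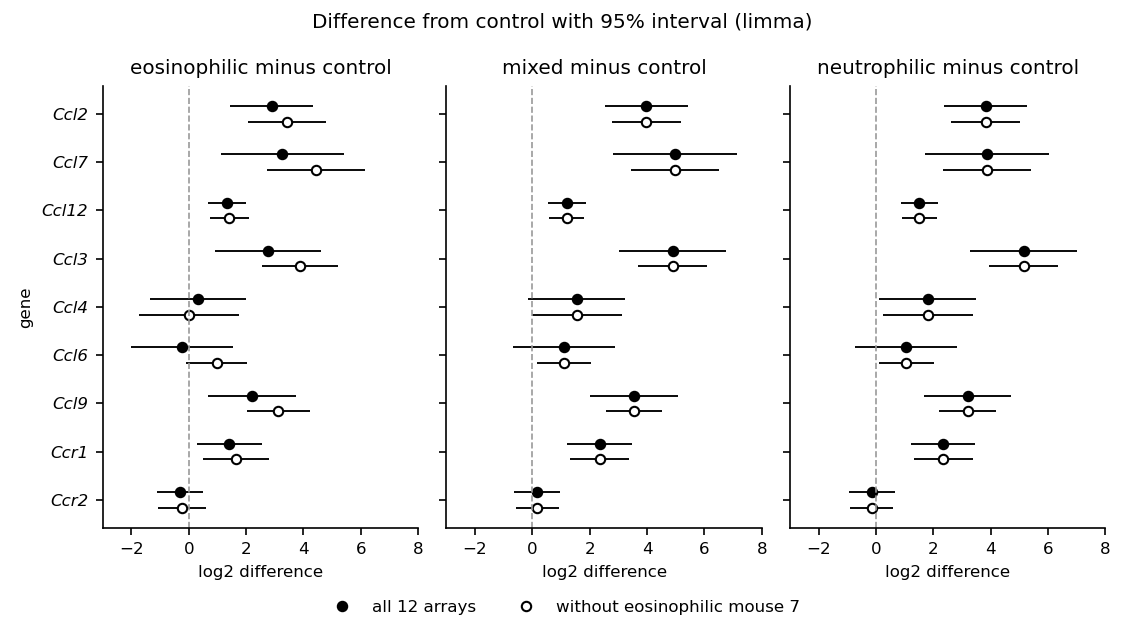
Difference of each model from control mice for the 9 genes, in log2 units with the 95% interval from limma, for eosinophilic, mixed and neutrophilic mice from left to right. Filled circles use all 12 arrays and open circles leave out eosinophilic mouse 7. Ccl3 in neutrophilic mice shows the largest difference (5.15), and the intervals of Ccr2 span 0 in each panel.

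Between the models, no gene of the 9 passed the threshold with 12 arrays or without mouse 7. In neutrophilic against mixed mice, which differ in dose, 0 of 9 passed in limma (0 at an unadjusted p under 0.05), and 0% of all genes were called. Ccl7 showed the widest gap, at -1.11 (95% interval -3.27 to 1.05), and Ccr1 differed by 0.00077 (-1.12 to 1.12). Mixed and eosinophilic mice share the dose of each extract but differ in route, adjuvant and schedule together. In mixed against eosinophilic mice 0 of 9 passed in limma (1 at an unadjusted p under 0.05), with 0.00502% of all genes called. Ccl3 had the largest difference there, 2.13 (95% interval 0.27 to 4.0, adjusted p = 0.295). In neutrophilic against eosinophilic mice, which differ in dose as well, 0 of 9 passed in limma (1 at an unadjusted p under 0.05), with 0.115% of all genes called. Without mouse 7 the count also stayed at 0 of 9 in each of these 3 comparisons (limma; 0, 0 and 1 at an unadjusted p under 0.05), with 0%, 0.0502% and 0.191% of all genes called. Without mice 7, 9 and 23, 0, 0 and 1 of 9 passed in limma (2 in each at an unadjusted p under 0.05), with 0.266%, 0.120% and 1.33% of all genes called, the 1 being Ccl4, higher by 2.49 in neutrophilic (n = 2) than in eosinophilic mice (n = 1; limma, adjusted p = 0.0221).

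Ccl3 was again the gene with the largest difference between neutrophilic and eosinophilic mice, 2.39 (95% interval 0.52 to 4.25; limma, adjusted p = 0.435). Without mouse 7 it was 1.27 (-0.06 to 2.61), and Ccl4 was then largest at 1.79 (0.04 to 3.54; limma, adjusted p = 0.620). The intervals were wide, so these data do not show that the models are alike. Eosinophilic mouse 8 read highest of its group for Ccl2, Ccl7, Ccl12, Ccl3, Ccl6, Ccl9, Ccr1 and Ccr2. With that mouse left out instead, 5 of 9 genes were higher in mixed than in eosinophilic mice and 2 of 9 in neutrophilic than in eosinophilic mice. In that fit mouse 7 made up 1 of the 2 eosinophilic arrays. The share of all genes called in it is not given here, so these counts cannot be read as a result about the 9 genes.

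**Figure D3:**
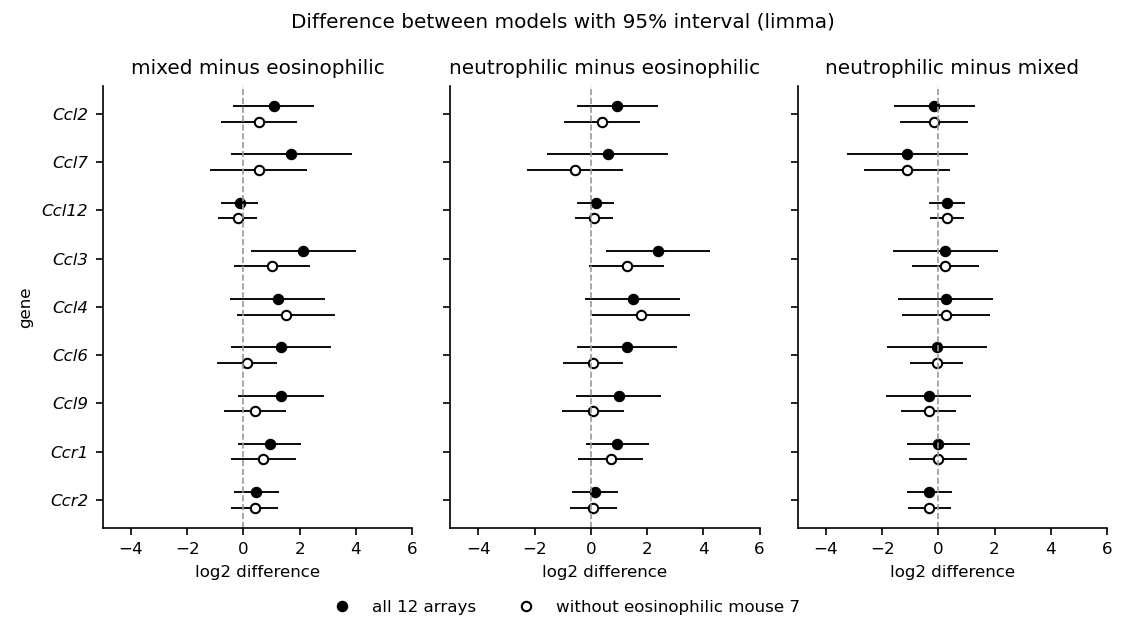
Differences between models for the 9 genes, in log2 units with the 95% interval from limma, as mixed minus eosinophilic, neutrophilic minus eosinophilic and neutrophilic minus mixed. Filled circles use all 12 arrays and open circles leave out eosinophilic mouse 7. For neutrophilic minus mixed every interval spans 0.

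The neighbours of the ligand genes on chromosome 11 were followed as well. Ccl8, which attracts monocytes and other leukocytes, lies beside Ccl12 and read log2 5.67, 10.07 and 8.58 in eosinophilic mice, 7.90, 7.58 and 8.96 in mixed mice, 7.42, 9.75 and 8.27 in neutrophilic mice, and 3.55, 3.28 and 3.33 in control mice. It rose in all 3 models with 12 arrays, by 4.72, 4.76 and 5.09 in eosinophilic, mixed and neutrophilic mice (limma, adjusted p = 0.0462, 0.0385 and 0.0146). Ccl11, eotaxin 1, rose by 4.49 in mixed and 4.16 in neutrophilic mice (limma, adjusted p = 0.00829 and 0.00755), and its eosinophilic difference was 2.59 (adjusted p = 0.0608), or 3.18 without mouse 7 (adjusted p = 0.0101). Ccl5, at the other end of the second stretch and an attractant of T cells and monocytes, passed in no model, with differences of -1.18, 1.61 and 1.39 in eosinophilic, mixed and neutrophilic mice (limma, adjusted p = 0.323, 0.780 and 0.508). Ccl1, the last gene of the first stretch, averaged log2 4.64 in eosinophilic, 4.97 in mixed, 5.65 in neutrophilic and 4.35 in control mice. Large and small differences stood side by side within both stretches. Whether the probe sets of these genes respond alike was not tested.

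**Figure D4:**
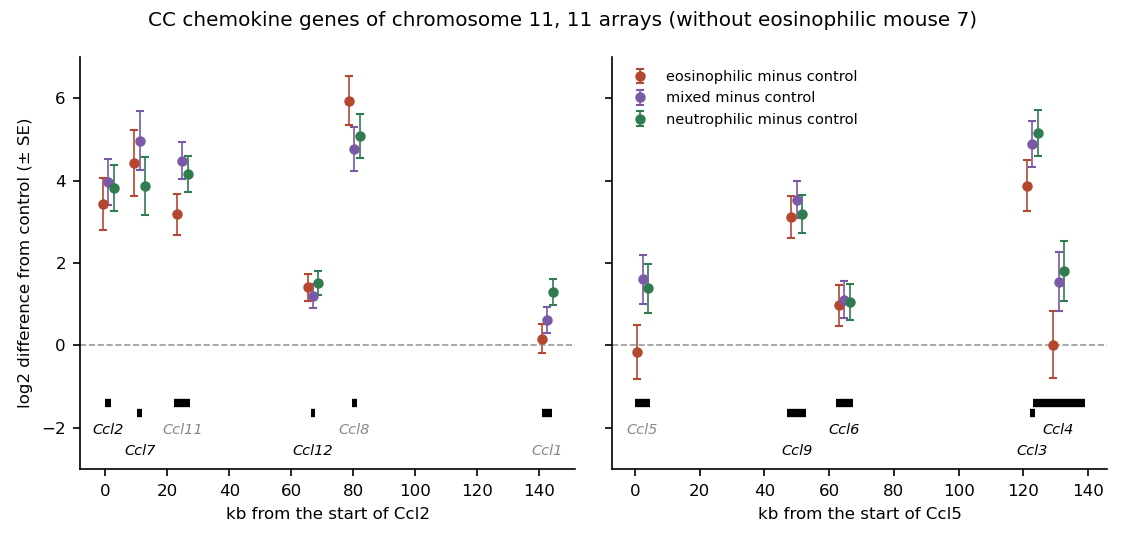
Difference from control, in log2 units with its SE from limma on 11 arrays without eosinophilic mouse 7, for the CC chemokine genes of chromosome 11, against the distance in kb from the start of Ccl2 (left) and of Ccl5 (right). Bars show the annotated gene spans, with the genes followed here in black and the others in grey. In neutrophilic mice Ccl3 differed by 5.15 and the adjoining Ccl4 by 1.81.

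Other genes of the pathway were read from lists chosen by function. Of 9 measured genes of the related chemokine system, 1 rose in each model with 12 arrays, Ccl8. Without mouse 7 the counts were 1, 2 and 2 in eosinophilic, mixed and neutrophilic mice, the second gene being Ackr1, the chemokine-binding receptor of venules, with 1.85 in mixed (limma, adjusted p = 0.0145) and 1.41 in neutrophilic mice (adjusted p = 0.0282). None of 7 colony stimulating factor genes and receptors passed with 12 arrays in limma (1, 5 and 5 at an unadjusted p under 0.05 in eosinophilic, mixed and neutrophilic mice). Without mouse 7, 2, 4 and 4 of the 7 rose. Csf2rb, the common beta receptor chain, rose by 2.11, 2.25 and 2.48 (limma without mouse 7, adjusted p = 0.0197, 0.00315 and 0.000932), and Csf1, the monocyte growth factor, by 1.43 in mixed and 1.30 in neutrophilic mice (adjusted p = 0.00920 and 0.00799).

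Among 13 inducers and feedback genes of the NF-kB pathway, 0, 1 and 3 rose in eosinophilic, mixed and neutrophilic mice with 12 arrays, and 1, 9 and 11 without mouse 7. Il6 rose by 2.66 in mixed mice and 2.06 in neutrophilic mice with all arrays (limma, adjusted p = 0.0346 and 0.0498). Il1b, the interleukin 1 beta gene, rose by 3.28 in neutrophilic mice (limma, adjusted p = 0.0498), and Bcl3, a nuclear regulator of NF-kB, by 2.21, 3.19 and 3.37 in the 3 models without mouse 7 (adjusted p = 0.0360, 0.00107 and 0.000496). Of 8 measured genes for signalling below chemokine receptors none passed in limma with 12 arrays (0, 1 and 1 at an unadjusted p under 0.05), and without mouse 7 Rgs1, a brake on G protein signals, rose by 2.39 in neutrophilic mice (limma, adjusted p = 0.0455).

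Ligands of other leukocyte receptors moved too. Of 6 genes of the CXCR2 axis, which draws neutrophils, 1 rose in eosinophilic and 4 in both mixed and neutrophilic mice with 12 arrays, Cxcl5 by 4.68 in mixed and 4.54 in neutrophilic mice (limma, adjusted p = 0.000221 and 0.000254). Cxcl5 was also higher in mixed than in eosinophilic mice and in neutrophilic than in eosinophilic mice, where none of the 9 monocyte-recruiting genes passed. The CXCR2 counts without mouse 7 were 1, 5 and 4 in eosinophilic, mixed and neutrophilic mice. Of 8 eotaxin and type 2 chemokine genes 0, 3 and 4 rose in those models with 12 arrays, and 3, 4 and 5 without mouse 7.

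Markers of cells that make or carry these genes were read on the same arrays. Over 7 inflammatory monocyte markers the mean level ranged from log2 5.51 to 7.66 in eosinophilic mice, 7.29 to 7.99 in mixed mice, 6.86 to 8.29 in neutrophilic mice and 6.03 to 6.47 in control mice. Of these 7, 0, 1 and 2 rose in eosinophilic, mixed and neutrophilic mice with 12 arrays, and 1, 2 and 3 without mouse 7. With 12 arrays these were Cd14 by 4.37 in mixed and 4.24 in neutrophilic mice (limma, adjusted p = 0.0385 and 0.0215) and Ifitm6 by 2.3 in neutrophilic mice (adjusted p = 0.0116). Not all of the 7 moved this way. Ms4a4c averaged 6.83 in eosinophilic, 7.05 in mixed, 6.61 in neutrophilic and 6.77 in control mice. Plac8 averaged 6.0 in eosinophilic mice (6.96 without mouse 7) and 6.9 in control mice. The listed marker Ly6c2 had no probe set with a single gene symbol. Over 6 patrolling monocyte markers the mean ranged from 5.74 to 6.80, 6.56 to 7.10, 6.25 to 6.75 and 7.46 to 7.51 in the same order of groups, every model array below every control array. The 6 did not move together, with group means in that order of 5.85, 6.73, 6.81 and 8.28 for Nr4a1 but 5.93, 5.84, 5.83 and 5.86 for Spn. Of those 6, 0, 0 and 1 were lower in either fit, Cd300e with a difference of -1.43 in neutrophilic mice (limma, adjusted p = 0.0178).

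Over 10 neutrophil markers the mean ranged from 6.01 to 7.44 in eosinophilic, 7.64 to 8.28 in mixed, 7.18 to 8.85 in neutrophilic and 5.77 to 6.45 in control mice, with 0, 0 and 3 of 10 higher in the models with 12 arrays (limma; 1, 6 and 8 at an unadjusted p under 0.05), and 0, 6 and 7 without mouse 7. Over 11 tissue macrophage markers it ranged from 5.88 to 8.88, 7.35 to 8.28, 7.13 to 8.81 and 6.58 to 7.03 in those groups, with none of 11 past the threshold in limma with 12 arrays (3, 1 and 4 at an unadjusted p under 0.05), and 2, 1 and 3 without mouse 7. Of 8 alveolar macrophage markers 1 rose in each model with 12 arrays, Chil3, which is also made by alternatively activated macrophages, and 1, 1 and 2 rose without mouse 7. Of 8 dendritic cell and 8 T and NK cell markers none passed in either limma fit, and with 12 arrays 2, 2 and 1 dendritic cell markers and 0, 0 and 0 T and NK cell markers had an unadjusted p under 0.05 in eosinophilic, mixed and neutrophilic mice. Lung tissue markers averaged 6.51 on mouse 7 and 10.58 to 11.43 on the other arrays. The part of these cells in the differences of the chemokine genes was not tested.

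**Figure D5:**
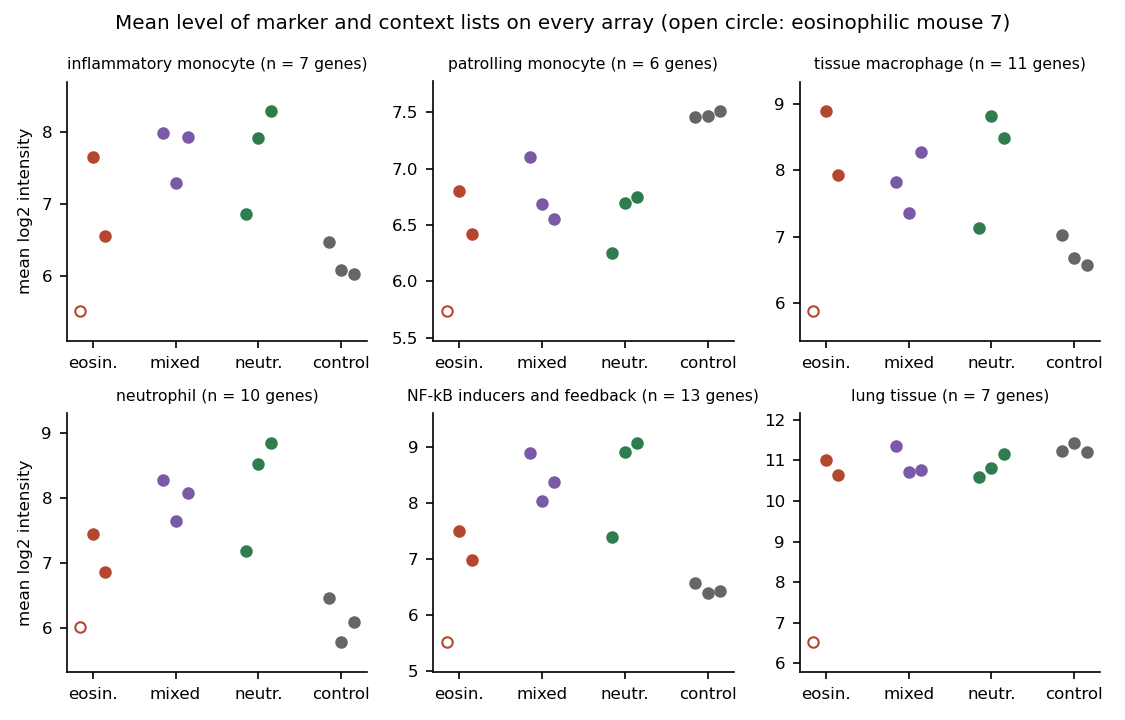
Mean log2 intensity over the measured genes of 6 lists on every array, for eosinophilic, mixed, neutrophilic and control mice from left to right, each panel with its own axis. The open circle is eosinophilic mouse 7. The patrolling monocyte mean lies between 7.46 and 7.51 in control mice and at 7.10 or below in every model array, although its member Spn hardly differed. The lung tissue mean is 6.51 on mouse 7.

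Levels of the genes followed each other to different degrees over the arrays. Over the 11 arrays without mouse 7 the closest pair was Ccl3 and Ccl9 (Pearson r = 0.975), then Ccl2 and Ccl7 (r = 0.954), which all share the contrast between models and controls and the same libraries. Ccr2 correlated with its ligands Ccl2, Ccl7 and Ccl12 at r = 0.06, 0.14 and 0.02 over 11 arrays. Ccr1 correlated with its ligands Ccl3 and Ccl9 at 0.945 and 0.953 and with Ccl6 at 0.866. With the Ccr2 ligands Ccl2, Ccl7 and Ccl12, Ccr1 correlated at 0.901, 0.882 and 0.789. Its values thus do not single out its own ligands. Ccl4 correlated with the overlapping gene Ccl3 at 0.684. These values describe the arrays and carry no test.

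The genes with the profiles most like each member were found over the same 11 arrays. For Ccl2 the closest was Ccl11 (r = 0.979, and 0.977 over 12 arrays), followed by Retnlg and Wfdc17. For Ccl12 it was Ccl8 (r = 0.957, and 0.924 over 12 arrays), and for Ccl7 it was Tfec (r = 0.976, and 0.977 over 12 arrays), a transcription factor gene of macrophages. Lilrb4a, an inhibitory receptor gene of myeloid cells, was closest to both Ccl3 (r = 0.984) and Ccl9 (r = 0.985), each at 0.923 over 12 arrays. Ccl6 was closest to the complement gene C1qa (r = 0.961), Ccl4 to Tle3 (r = 0.958), and Ccr1 to Arg2 (r = 0.980), which encodes arginase 2. Over 12 arrays these fell to 0.821, 0.684 and 0.917. For Ccr2 the closest was Mrpl19 at r = 0.884, and 0.851 over 12 arrays.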

How the data were processed

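Whole-lung RNA was labelled from snap-frozen tissue, per the labels, and the platform annotation used here is that of Affymetrix mouse Gene 1.0 ST arrays. The deposited values are log2 intensities, 1 per probe set, summarised by the authors using Affymetrix Expression Console and its RMA method, as the submitters' processing notes state. For the software, a version was not given in the sources used here. Spread differs between arrays, and the planned fit used the values as they stand. No detection calls, batches or scan dates were given, and the number of arrays limits the precision.

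The table held 34760 probe sets on 12 arrays. The platform annotation gave 21640 of them a single gene symbol, 1321 several, and the rest none. Entrez IDs of 21553 matched RefSeq genes (GRCm38.p6) and no symbol changed. The probe set with the highest mean stood for a gene, which left 19937 genes.

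A mean per group was fitted to all 12 arrays with limma 3.58.1 in R 4.3.3 (lmFit, eBayes, 8 residual degrees of freedom). P values were two-sided and adjusted by Benjamini-Hochberg over all genes, and the threshold was 0.05. The fit recovered large planted changes in simulated data whose spread was set without mouse 7. Its power with an array like that of mouse 7 was therefore not tested. Alternatives covered normalization, dim genes, the variance model, probe sets and the arrays used; those that left out mouse 7 with a further array were chosen after seeing the data.

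The 9 genes and all lists were chosen with earlier results of these data known. All 9 genes are named in every comparison, with up to 4 genes of each other list by smallest p and the 3 genes most correlated with each of the 9 over 11 arrays, leaving out names of clones, predicted genes, micro RNAs and sno RNAs. AA467197 was treated as a clone name after that ranking had been seen. Some genes of the lists are not reported here. Promoter motifs were searched with python 3.11.15.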

Additional observations from a re-analysis of the deposited data

How the results depend on the processing

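No paired analysis was possible because the groups share no replicate numbers. The 3 mice of a group, 1 array far from the rest and unknown detection limits bound what these data can show. Over 1782 recomputed differences of the 9 genes, 1454 kept direction and side of the threshold, 164 passed it newly, 56 no longer passed and 108 changed direction. The cause was not tested. Centring arrays shifted the median of all genes by -0.24 in eosinophilic against control mice.

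The number of the 9 genes past the threshold in eosinophilic against control mice (0 as planned) was 2 with quantile normalization, 1 with either filter on dim genes, 2 with trend and robust variances, 7 without mice 7, 9 and 23, and 4 with quantile normalization without mouse 7. In mixed mice (2 as planned) it was 0 after centring, 4 with either filter, 6 with trend and robust variances, 8 in a fit of those groups alone, 0 over all probe sets, 8 without mice 7, 9 and 23, and 6 with quantile normalization without mouse 7. In neutrophilic mice (5 as planned) it was 2 after centring, 3 with quantile normalization, 2 over all probe sets and 8 without mice 7, 9 and 23. Neutrophilic against eosinophilic mice gave 1 (0 as planned) without mice 7, 9 and 23. That fit has 1 eosinophilic mouse, taken to vary like the other groups. Leaving out arrays, alone or with mouse 7, gave 0 to 5 genes for eosinophilic, 0 to 7 for mixed and 0 to 8 for neutrophilic against control mice, 0 to 5 for mixed against eosinophilic and 0 to 2 for neutrophilic against eosinophilic mice.

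Most changes of direction were of small differences, and 1 of them passed the threshold, Ccl6 in eosinophilic against control mice without mice 7, 9 and 23 (1.70, limma adjusted p = 0.0301). In that fit the log2 difference became 0.060 for Ccr2 in eosinophilic against control mice; 0.10 for Ccl2, 0.39 for Ccl6 and 0.18 for Ccl9 in neutrophilic against mixed mice; -0.83 for Ccl2, -1.18 for Ccl7, -0.030 for Ccl3, -0.58 for Ccl6 and -0.21 for Ccl9 in mixed against eosinophilic mice; and -0.73 for Ccl2, -1.60 for Ccl7, -0.19 for Ccl6, -0.035 for Ccl9 and -0.19 for Ccr2 in neutrophilic against eosinophilic mice. Quantile normalization gave 0.61 for Ccl6 in eosinophilic and 0.074 for Ccr2 in neutrophilic against control mice, 0.024 for Ccl2 and 0.078 for Ccl6 in neutrophilic against mixed mice, and 0.0037 for Ccl12 in mixed against eosinophilic mice. Without mouse 7 it gave -0.29 for Ccl4 and 1.20 for Ccl6 in eosinophilic and 0.079 for Ccr2 in neutrophilic against control mice, 0.024 for Ccl2 and 0.079 for Ccl6 in neutrophilic against mixed mice, -0.050 for Ccl6 in mixed and -0.63 for Ccl7 in neutrophilic against eosinophilic mice. Centring gave -0.039 for Ccr1 in neutrophilic against mixed and 0.062 for Ccl12 in mixed against eosinophilic mice.

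Leaving out arrays moved the log2 difference across 0 in these cases. In eosinophilic against control mice the range was -1.18 to 1.70 for Ccl6, -0.44 to 0.70 for Ccl4 and -0.62 to 0.060 for Ccr2. For Ccr2 it was -0.16 to 0.45 in mixed and -0.47 to 0.14 in neutrophilic against control mice. In neutrophilic against mixed mice it was -0.14 to 0.81 for Ccl3, -0.60 to 1.42 for Ccl4, -0.44 to 0.44 for Ccr1, -0.43 to 0.39 for Ccl6, -0.48 to 0.10 for Ccl2 and -0.64 to 0.18 for Ccl9. In mixed against eosinophilic mice it was -0.42 to 0.085 for Ccl12, -0.83 to 2.04 for Ccl2, -1.18 to 3.15 for Ccl7, -0.030 to 3.22 for Ccl3, -0.58 to 2.29 for Ccl6 and -0.21 to 2.10 for Ccl9. In neutrophilic against eosinophilic mice it was -2.28 to 2.04 for Ccl7, -0.10 to 0.37 for Ccl12, -0.98 to 1.89 for Ccl2, -0.64 to 2.24 for Ccl6, -0.56 to 1.76 for Ccl9 and -0.21 to 0.38 for Ccr2.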
